A study of Mus musculus with 18 samples.

Results

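The genes described here encode the proteins that copy the genome in S phase, from the licensing of origins to the packing of the new strands, and the enzymes that supply the deoxynucleotides. They were 34 genes listed by name for this function, of the 20145 gene symbols that could be matched to a probe, and the brightest probe stood for each gene. All 34 had a probe on the array. For 33 of them the probe cleared the background on every array of 1 day or more, which was the condition for a test. Orc1 was the exception and is given as values.

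The RNA came from explant cultures of mouse dorsal root ganglia, the sensory ganglia beside the spinal cord, in which neurons, Schwann cells and connective tissue cells are kept together. Ganglia of C57BL/6J embryos at stage E13.5, pooled for each batch, grew on matrigel in a growth medium for 12 days before the experiment, so day 0 was already a grown culture. The groups were day 0, taken just before the myelination medium was given, day 10 in that medium and day 22 in that medium, a stage with many mature sheaths per the labels. Day 0 is labelled control and the later days are labelled with the myelination medium, and the labels name no transgene or deletion. Each group had 3 batches from different pools of embryos and 2 technical arrays per batch, 6 arrays per day and 18 in all. No culture of day 10 or day 22 outside the medium was analysed here, so the effect of time and that of the medium cannot be told apart.

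A chromosome is copied from origins, where the origin recognition complex with Cdc6 and Cdt1 loads the ring-shaped Mcm helicase before S phase begins. Cdc45 and the GINS complex turn the loaded ring into a working helicase, polymerase alpha with its primase lays down short starts, and polymerases epsilon and delta extend them while held to DNA by the Pcna clamp. Most of these genes are transcribed in cells that are about to enter S phase, under E2F factors, and cells that leave the cycle shut them down. In developing nerve, immature Schwann cells divide and stop when they begin to form myelin, while sensory neurons of this stage have largely left the cycle.

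A level is the log2 intensity of a probe minus the log2 75th percentile of its array, so 1 unit is a 2-fold difference, and levels of different probes are not compared. A change is a log2 difference between days ± SE from limma, over 3 batches per day, and adjusted p-values were taken over all 22854 features tested, with a threshold of 0.05. The array files and the deposited value table disagree on the batch of 12 of the 18 arrays, always within a day. Each test was therefore run with both assignments, called here the filed batches (array files) and the tabled batches (value table), which give the same changes with different errors. Each SE, and the adjusted p where only 1 is printed, is that of the filed batches. The median SD between batches of the replication genes was 0.11 with the filed and 0.15 with the tabled batches. A test for differences between batches within a day called 0% of features with the filed and 8.69% with the tabled batches. The median difference between paired arrays over all features was 0.19 with the filed and 0.16 with the tabled batches. Paired arrays of a filed batch had an estimated correlation of -0.02 beyond the effect of day. Which assignment is right is not settled. If the tabled batches are right, each filed batch averages arrays of different pools, and the SEs and single adjusted p-values printed here may be too small. A gene is said here to have fallen or risen only if it passed with both. On each array 54.8 to 61.5% of spots were well above background and 0 were saturated. The precision is limited by how few arrays there were.

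Every one of the 33 genes tested was lower on day 22 than on day 0, and all 33 fell, with both batch assignments. Of all features, 27.3% were called lower with the filed batches, 19.2% with the tabled batches, 20.5% with the tabled batches as a replicate block and 18.6% with both assignments. The median change was -1.33, against -0.08 over all features, and single genes ranged from -3.28 for Uhrf1 to -0.64 for Tyms. As folds, the genes were 1.56- to 9.70-fold lower, 25 of 33 by at least 2-fold and 7 by at least 4-fold, while 5.66% of all features were at least 2-fold lower. On all 33, each day 22 array lay below each day 0 array, as was so for 13.3% of all features.

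All 33 genes moved the same way, so their promoters were read for shared letters. RefSeq promoters (assembly GRCm38.p6, 250 bases before to 50 after the most upstream start) were found for 30 of the 34 genes, and not for Mcm4, Gins1, Gins2 and Pole. The letters of an E2F site (TTTCCCGC, TTTCGCGC, TTTGCCGC or TTTGGCGC, on either strand) were present in 10 of these 30, or 33.3%, and in 2.33% of 27025 promoters of the same length. The 10 genes were Orc1, Cdc6, Cdt1, Mcm3, Mcm5, Mcm6, Mcm7, Pola1, Pold1 and Rfc3. The sequences that follow have the E2F letters in capitals. They are Mcm3 (chr1:20820263-20820562 on the minus strand), Mcm5 (chr8:75109259-75109558 on the plus strand), Mcm6 (chr1:128359656-128359955 on the minus strand) and Rfc3 (chr5:151651159-151651458 on the minus strand), 4 of the 5 genes with more than 1 match, and Rrm2 (chr12:24708004-24708303 on the plus strand) and Uhrf1 (chr17:56303087-56303386 on the plus strand), which have the largest falls among the genes with a promoter and no match.
Mcm3: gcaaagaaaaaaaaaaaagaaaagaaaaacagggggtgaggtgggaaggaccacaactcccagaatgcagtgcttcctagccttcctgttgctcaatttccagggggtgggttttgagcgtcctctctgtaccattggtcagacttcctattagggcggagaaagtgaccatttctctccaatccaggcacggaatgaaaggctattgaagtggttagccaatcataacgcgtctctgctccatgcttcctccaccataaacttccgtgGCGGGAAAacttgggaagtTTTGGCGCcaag
Mcm5: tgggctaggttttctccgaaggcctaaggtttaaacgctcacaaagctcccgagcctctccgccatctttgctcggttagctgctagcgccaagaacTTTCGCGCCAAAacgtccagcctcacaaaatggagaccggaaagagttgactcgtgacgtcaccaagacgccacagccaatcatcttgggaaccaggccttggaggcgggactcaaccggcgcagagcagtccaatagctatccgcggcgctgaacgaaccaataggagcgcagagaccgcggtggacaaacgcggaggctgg
Mcm6: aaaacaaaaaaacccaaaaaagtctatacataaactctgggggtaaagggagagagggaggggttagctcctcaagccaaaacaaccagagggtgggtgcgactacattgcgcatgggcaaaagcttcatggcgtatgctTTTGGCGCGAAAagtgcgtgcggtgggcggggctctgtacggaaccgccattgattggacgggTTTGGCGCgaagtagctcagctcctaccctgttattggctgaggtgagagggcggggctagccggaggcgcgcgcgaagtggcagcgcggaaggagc
Rfc3: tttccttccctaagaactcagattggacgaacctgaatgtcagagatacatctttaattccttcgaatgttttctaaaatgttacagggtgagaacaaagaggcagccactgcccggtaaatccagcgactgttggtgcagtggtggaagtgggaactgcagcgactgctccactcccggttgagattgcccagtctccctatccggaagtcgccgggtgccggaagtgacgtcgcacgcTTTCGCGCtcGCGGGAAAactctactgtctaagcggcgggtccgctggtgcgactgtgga
Rrm2: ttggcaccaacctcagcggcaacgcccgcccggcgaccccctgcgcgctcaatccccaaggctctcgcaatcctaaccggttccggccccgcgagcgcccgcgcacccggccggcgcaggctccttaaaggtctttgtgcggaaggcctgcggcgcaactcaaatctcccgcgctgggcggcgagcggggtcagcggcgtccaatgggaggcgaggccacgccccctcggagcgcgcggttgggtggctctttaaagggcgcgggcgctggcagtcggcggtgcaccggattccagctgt
Uhrf1: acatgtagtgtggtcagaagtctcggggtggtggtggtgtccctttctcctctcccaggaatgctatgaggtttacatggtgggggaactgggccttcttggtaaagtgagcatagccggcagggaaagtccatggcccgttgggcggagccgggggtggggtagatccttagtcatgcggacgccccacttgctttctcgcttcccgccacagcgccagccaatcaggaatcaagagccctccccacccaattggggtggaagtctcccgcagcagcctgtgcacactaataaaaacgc
In Mcm5 the matches begin 153 and 149 bases before the start and overlap on opposite strands, and Mcm6 has an overlapping pair at 110 and 106 bases and a further match at 47 bases before the start. Rfc3 has one match 10 bases before the start and another at the start, and those of Mcm3 lie 19 and 38 bases after it. The fifth gene, Mcm7, not printed, has matches 165 bases before and 16 bases after its start, and its change over the course, -1.09 ± 0.09, was the smallest of the ring. Over the whole course the 9 tested genes with a match had a median of -1.34 (-2.41 to -0.80) and the 20 without one a median of -1.38 (-3.28 to -0.64), given as a description with no test.

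The CHR element TTTGAA, either strand, a repressor element typical of genes of G2 and mitosis, was in 15 of 21 promoters of a list of mitotic genes (71.4%), 3 of 30 replication genes (10.0%) and 18.2% of all promoters. The E2F letters were in 1 of those 21 mitotic promoters and in 2 of 17 of the purine and pyrimidine ring synthesis list. CCAAT boxes (CCAAT, either strand) were in 60.0% of the replication genes, 81.0% of the mitotic genes and 38.0% of all promoters. A match is a stretch of letters and not a measured site.

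The fall had begun by day 10. From day 0 to day 10, 28 of 33 genes fell, against 7.72% of all features called lower with both assignments. With the filed batches 33 of 33 were called lower, against 17.8% of features, with the tabled batches 28, against 7.94%, and with the tabled batches as a replicate block 26, against 8.9%. The median change was -0.79, the range -1.40 to -0.31, and 7 of 33 were at least 2-fold lower, against 3.37% of all features. From day 10 to day 22, 13 of 33 fell, against 1.45% of all features, and 26 of 33 were called lower with the filed batches, against 5.43% of features. The count was 13 with the tabled batches, against 1.48%, and 10 with these as a replicate block, against 1.75%. With that block Orc6 (adjusted p = 0.0525) and Rfc4 (0.0544) no longer passed in the first interval, nor Mcm3 (0.0602), Mcm10 (0.0531) and Lig1 (0.0622) in the second. The count of 26 became 14, 17 and 14 when day 10 batches 1, 2 and 3 were left out in turn, and 17 without day 22 batch 2. The shares of all features in these fits are not given here. The median of this second change was -0.53 and the range -1.88 to -0.11. No member was called higher in any of these comparisons.

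**Figure D1:**
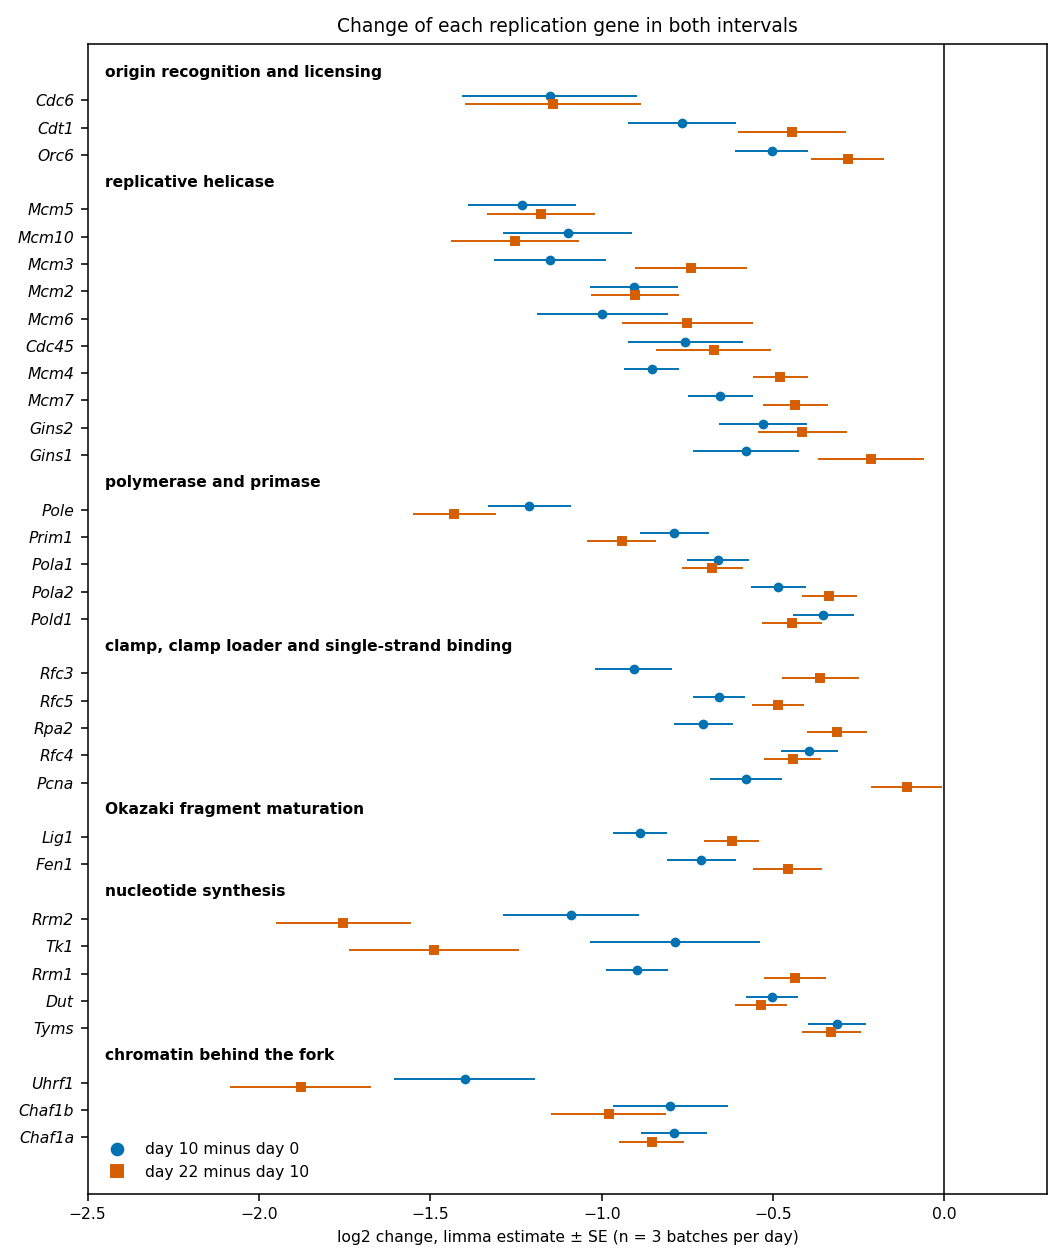
Log2 change ± SE (limma, n = 3 batches per day) of the 33 tested genes from day 0 to day 10 (circles) and from day 10 to day 22 (squares), ordered within each role by the change over the whole course. All points lie below 0, Uhrf1 and Rrm2 lie farthest left in the second interval, and the second point of Pcna lies nearest to 0 at -0.11.

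Origin licensing was measured through Cdc6, Cdt1, Orc6 and Orc1, and the 3 that could be tested fell over the course. Cdc6, the loader that brings the helicase to the origin, ran from -2.35 to -1.81 on the day 0 arrays (median -1.96), from -3.87 to -2.69 on day 10 (-2.96) and from -5.25 to -3.64 on day 22 (-4.28). No day 0 array overlapped a later one, the later days overlapped each other, and on day 22 the probe was well above background on 5 of 6 arrays. Cdc6 fell by 2.29 ± 0.26 over the course (4.90-fold, adjusted p = 0.000255), with -1.15 in the first interval and -1.14 in the second, the latter not past the threshold with the tabled batches (adjusted p = 0.0744, 0.031 with the filed batches). A second Cdc6 probe changed by -1.19 and -1.34, the latter with a signal well above background on 4 of 6 day 22 arrays.

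Cdt1, which loads the helicase together with Cdc6 and is destroyed once S phase starts, ranged from 2.13 to 2.54 on day 0, from 1.30 to 2.03 on day 10 and from 0.63 to 1.56 on day 22. Its change was -0.77 ± 0.16 in the first interval, in which it fell, and -0.44 ± 0.16 in the second (adjusted p = 0.116). Orc6, the smallest and most loosely held subunit of the origin recognition complex, fell by 0.50 ± 0.11 to day 10 and by 0.79 ± 0.11 over the course, with -0.28 ± 0.11 in the second interval (adjusted p = 0.135). The day 10 and day 22 arrays of both genes overlapped.

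The large subunit Orc1, whose protein is made anew in each cycle, gave a signal well above background on 5 of 6 day 0 arrays and on 0 arrays of either later day. Its mean level was -4.82 on day 0, and its dim signals averaged -6.37 on day 10 and -7.16 on day 22. It did not enter the test.

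All 10 genes of the replicative helicase fell over the whole course, 9 of them already by day 10 and 4 (Mcm2, Mcm3, Mcm5 and Mcm10) in both intervals. Of these 4, Mcm3 and Mcm10 did not pass in the second interval with the tabled batches as a replicate block (adjusted p = 0.0602 and 0.0531). Mcm5, a subunit of the Mcm2 to Mcm7 ring, had the largest fall of the ring. Its levels were 1.66 to 2.11 on day 0 (median 1.96), 0.31 to 1.0 on day 10 (0.72) and -1.11 to -0.21 on day 22 (-0.42). The 3 days did not overlap, and 1 day 22 array lay apart at -1.11, the next being -0.54. Mcm5 fell by 2.41 ± 0.16 in all (5.31-fold, adjusted p = 2.42e-05), by 1.23 in the first interval and by 1.18 in the second.

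The subunits of the ring assemble in equal numbers. Over the course the changes were -2.41 for Mcm5, -1.89 ± 0.16 for Mcm3, -1.81 ± 0.13 for Mcm2, -1.75 ± 0.19 for Mcm6, -1.33 ± 0.08 for Mcm4 and -1.09 ± 0.09 for Mcm7. On the log scale the ratio of Mcm5 to Mcm7 within a batch was lower on day 22 than on day 0 by 1.32 ± 0.22 (SE, n = 3 batches per day), with day 22 batches 0.95 to 1.70 below the day 0 mean. Pairs of this kind were chosen after the values were seen and are given as a description. A permutation test of each pair gave p = 0.1, the smallest value possible with 3 batches per day, so it could not reach the threshold.

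The arrays of Mcm6 ran from 3.95 to 4.42 on day 0, from 2.95 to 3.56 on day 10 and from 1.86 to 3.10 on day 22, so that the later days overlapped. It fell by 1.0 ± 0.19 to day 10 and changed by -0.75 ± 0.19 after it (adjusted p = 0.0456 with the filed batches, 0.064 with the tabled batches). Mcm4 and Mcm7 likewise fell in the first interval, by 0.85 and 0.65, and had second changes of -0.48 and -0.44 that passed only with the filed batches.

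Mcm10, which binds the loaded ring and helps to start unwinding, was among the genes with the largest changes. It ran from -0.20 to 0.21 on day 0, from -1.42 to -0.79 on day 10 and from -3.20 to -1.66 on day 22, without overlap. It fell by 1.1 ± 0.19 and then by 1.25 ± 0.19, and by 2.35 in all (5.11-fold). Mcm2 fell by nearly equal steps, 0.91 and 0.90, from day 0 arrays of 0.43 to 0.83 to day 22 arrays of -1.56 to -0.79.

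Cdc45 and the GINS subunits join the ring when it is switched on. Cdc45 fell by 1.43 ± 0.17 over the course, from arrays of -2.27 to -1.96 on day 0 to arrays of -4.15 to -3.09 on day 22. Gins2 fell by 0.53 ± 0.13 to day 10 and by 0.94 ± 0.13 in all. Gins1 fell by 0.79 ± 0.15 in all, and its first change, -0.58 ± 0.15, passed with the filed batches (adjusted p = 0.0244) and not with the tabled batches (0.0502). The other GINS subunits, Gins3 and Gins4, changed by 0.06 ± 0.07 and 0.19 ± 0.08 over the course (adjusted p = 0.494 and 0.105). The mean log ratio of Gins1 and Gins2 to Gins3 and Gins4 was lower by 0.99 ± 0.09 on day 22.

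**Figure D2:**
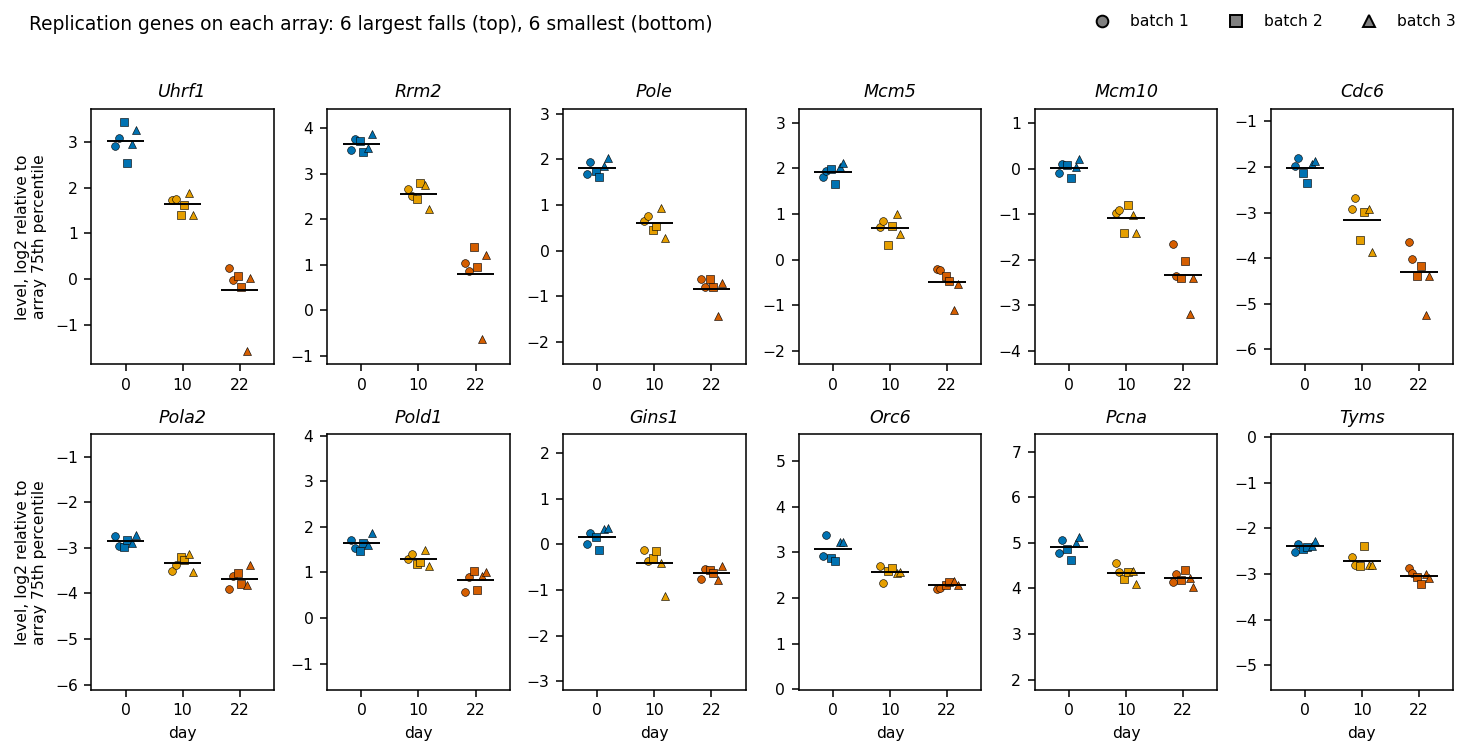
Level of 12 genes on each of the 18 arrays (log2 relative to the array's 75th percentile, each panel spanning the same height), with the batch of the array files as symbol and a line at the mean of each day. The upper row has the 6 genes with the largest fall over the course and the lower row the 6 with the smallest. The lowest day 22 point of each of the 6 upper genes, Uhrf1, Rrm2, Pole, Mcm5, Mcm10 and Cdc6, belongs to the same array of batch 3.

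Among the polymerases, Pole, the catalytic subunit of the leading strand polymerase epsilon, changed most. Its arrays ran from 1.61 to 2.04 on day 0 (median 1.81), from 0.27 to 0.93 on day 10 (0.60) and from -1.43 to -0.63 on day 22 (-0.75). The 3 days did not overlap. Pole fell by 1.21 ± 0.12 and again by 1.43 ± 0.12, which made 2.64 ± 0.12 in all (6.24-fold, adjusted p = 7.00e-06). A second Pole probe was at no time above background and gives no information.

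Pold1, the catalytic subunit of the lagging strand polymerase delta, lay between 1.46 and 1.87 on day 0, 1.13 and 1.5 on day 10 and 0.58 and 1.04 on day 22. Days 0 and 10 overlapped, and of its 3 changes the one over the whole course, -0.80 ± 0.09 (1.74-fold, adjusted p = 0.000241), was the one that passed with both batch assignments. The log ratio of Pole to Pold1 within a batch was lower by 1.84 ± 0.18 on day 22, a 3.59-fold shift between the catalytic subunits of the polymerases of the opposite strands.

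Priming involves Pola1 and Pola2, the catalytic and the regulatory subunit of polymerase alpha, and Prim1, the small catalytic subunit of primase. Prim1 ran from 1.83 to 2.25 on day 0, from 0.84 to 1.39 on day 10 and from 0.00 to 0.38 on day 22, and fell by 0.79 ± 0.10 and then by 0.94 ± 0.10. Pola1 fell by 0.66 ± 0.09 and then by 0.68 ± 0.09, with no overlap between days. Pola2 fell by 0.48 ± 0.08 to day 10 and by 0.82 ± 0.08 in all, with -0.34 ± 0.08 in the second interval (adjusted p = 0.0377 and, with the tabled batches, 0.166).

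Of the clamp, its loader and the single-strand binding protein, all 5 genes fell by day 10 and over the whole course. Pcna, the sliding clamp, which also serves DNA repair, had one of the smallest changes of all. It ran from 4.63 to 5.13 on day 0 (median 4.93), from 4.10 to 4.56 on day 10 (4.37) and from 4.02 to 4.41 on day 22 (4.21). The later days overlapped across most of their range. Pcna fell by 0.58 ± 0.10 to day 10 and changed by -0.11 ± 0.10 after it (adjusted p = 0.557), so that 84.0% of its change of -0.69 ± 0.10 was present on day 10, the highest share of the 33 genes.

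Rfc3, Rfc4 and Rfc5 are small subunits of the loader that opens the clamp. Rfc3 ran from -0.80 to -0.33 on day 0, from -1.74 to -1.29 on day 10 and from -2.0 to -1.65 on day 22, and 71.5% of its change of -1.27 ± 0.11 was present on day 10. Rfc5 fell in both intervals, by 0.66 ± 0.08 and 0.49 ± 0.08. Rfc4 fell by 0.39 ± 0.08 and by 0.84 ± 0.08 in all, and its second probe changed by -0.60 and -0.49 in the intervals, the same direction as the probe used. Rpa2, the middle subunit of the single-strand binding protein, fell by 0.70 ± 0.09 to day 10 and by 1.02 ± 0.09 in all, from arrays of -0.24 to 0.01 to arrays of -1.31 to -0.95.

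Okazaki fragments are trimmed by the flap nuclease Fen1 and sealed by the ligase Lig1. Lig1 ran from 2.86 to 3.26 on day 0, from 2.09 to 2.31 on day 10 and from 1.28 to 1.81 on day 22, with no overlap, and fell by 0.89 ± 0.08 and then by 0.62 ± 0.08. Fen1 fell by 0.71 ± 0.10 to day 10 and by 1.17 ± 0.10 in all. Its second change of -0.46 ± 0.10 passed with the filed batches (adjusted p = 0.0294) and not with the tabled batches (0.136), and 1 day 10 array at 2.04 lay within the day 22 range of 1.82 to 2.19.

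The 5 genes of deoxynucleotide supply all fell over the course, but by very different amounts. Rrm2, the small subunit of ribonucleotide reductase, which makes deoxynucleotides and is produced in S phase, lay between 3.47 and 3.86 on day 0 (median 3.64), 2.22 and 2.79 on day 10 (2.58) and -0.63 and 1.39 on day 22 (1.0). The 3 days did not overlap, and a single day 22 array at -0.63 lay below the other 5, the nearest of which was 0.86. Rrm2 fell by 1.09 ± 0.20 and then by 1.75 ± 0.20, in all by 2.84 ± 0.20 (7.17-fold, adjusted p = 3.16e-05).

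The large subunit Rrm1, which pairs with Rrm2, ran from 2.75 to 3.23 on day 0, from 1.80 to 2.27 on day 10 and from 1.56 to 1.80 on day 22. It fell by 0.90 ± 0.09 to day 10 and by 1.33 ± 0.09 in all. Rrm2b, the form of the small subunit that serves DNA repair and mitochondria outside S phase, changed by 0.32 ± 0.11 over the course, with adjusted p = 0.0361 by the filed batches and 0.0651 by the tabled batches. Within a batch, the log ratio of Rrm2 to Rrm1 was lower by 1.51 ± 0.23 on day 22 and that of Rrm2 to Rrm2b by 3.17 ± 0.31.

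Tk1, the cytosolic kinase of dividing cells, ran from 1.48 to 1.93 on day 0, from 0.55 to 1.17 on day 10 and from -1.95 to 0.23 on day 22. It fell by 2.28 ± 0.25 over the course (4.84-fold), of which 34.6% was present on day 10, the lowest share of the 33 genes. Neither interval passed with the tabled batches (adjusted p = 0.139 for -0.79 and 0.0621 for -1.49). The mitochondrial kinase Tk2 changed by 0.39 ± 0.12 (adjusted p = 0.0291 with the filed and 0.0864 with the tabled batches), so that the log ratio of Tk1 to Tk2 was lower by 2.67 ± 0.25 on day 22.

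Dut, which removes dUTP and thereby keeps uracil out of DNA, fell in both intervals, by 0.50 ± 0.08 and 0.53 ± 0.08. Its arrays ran from 0.99 to 1.17 on day 0, from 0.45 to 0.71 on day 10 and from -0.15 to 0.31 on day 22. Tyms, the enzyme that makes thymidylate, had the smallest change of the set, -0.64 ± 0.09 over the course (1.56-fold, adjusted p = 0.000591). It ran from -2.51 to -2.27 on day 0, from -2.82 to -2.39 on day 10 and from -3.21 to -2.87 on day 22, days 0 and 10 overlapping, and neither interval passed with both batch assignments.

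Of the genes that restore chromatin behind the fork, Uhrf1, which recruits the maintenance DNA methyltransferase to half-methylated DNA, had the largest fall of all 33. Its arrays ran from 2.54 to 3.44 on day 0 (median 3.02), from 1.40 to 1.89 on day 10 (1.68) and from -1.59 to 0.23 on day 22 (0.00). The 3 days did not overlap. Uhrf1 fell by 1.40 ± 0.20 and then by 1.88 ± 0.20, in all by 3.28 ± 0.20 (9.70-fold, adjusted p = 2.13e-05). A second Uhrf1 probe, built on another transcript, changed by -1.58 in the first interval and was well above background on 0 of 6 day 22 arrays, so no value is given for the second.

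Chaf1a and Chaf1b are the large and the middle subunit of the chromatin assembly factor that places new histones. Chaf1a ran from 0.67 to 1.14 on day 0, from 0.04 to 0.22 on day 10 and from -1.02 to -0.53 on day 22, and fell by 0.79 ± 0.10 and then by 0.85 ± 0.10. Chaf1b fell by 1.78 ± 0.17 in all, and its changes of -0.80 ± 0.17 and -0.98 ± 0.17 in the intervals passed with the filed batches only (adjusted p = 0.0501 and 0.0719 with the others). A second Chaf1b probe changed by -0.79 and -1.07.

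The amount of the fall was compared between the intervals by a contrast of its own. The intervals last 10 and 12 days, and the changes were not divided by their length, so the pace per day was not tested. For 20 of 33 genes the first change was the larger and for 13 the second, and a median of 52.9% of the whole change was present on day 10. By this contrast limma called 0 of 33 genes with either batch assignment (5 genes at an unadjusted p under 0.05 with the filed batches and 2 with the tabled batches), where 1.7% of features were called lower and 1.87% higher with the filed batches and 0% with both. The largest differences were -0.70 ± 0.43 for Tk1 and -0.66 ± 0.34 for Rrm2, with the larger change in the second interval, and 0.54 ± 0.19 for Rfc3, with the larger change in the first. A p that misses the threshold does not show that the intervals were alike.

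**Figure D3:**
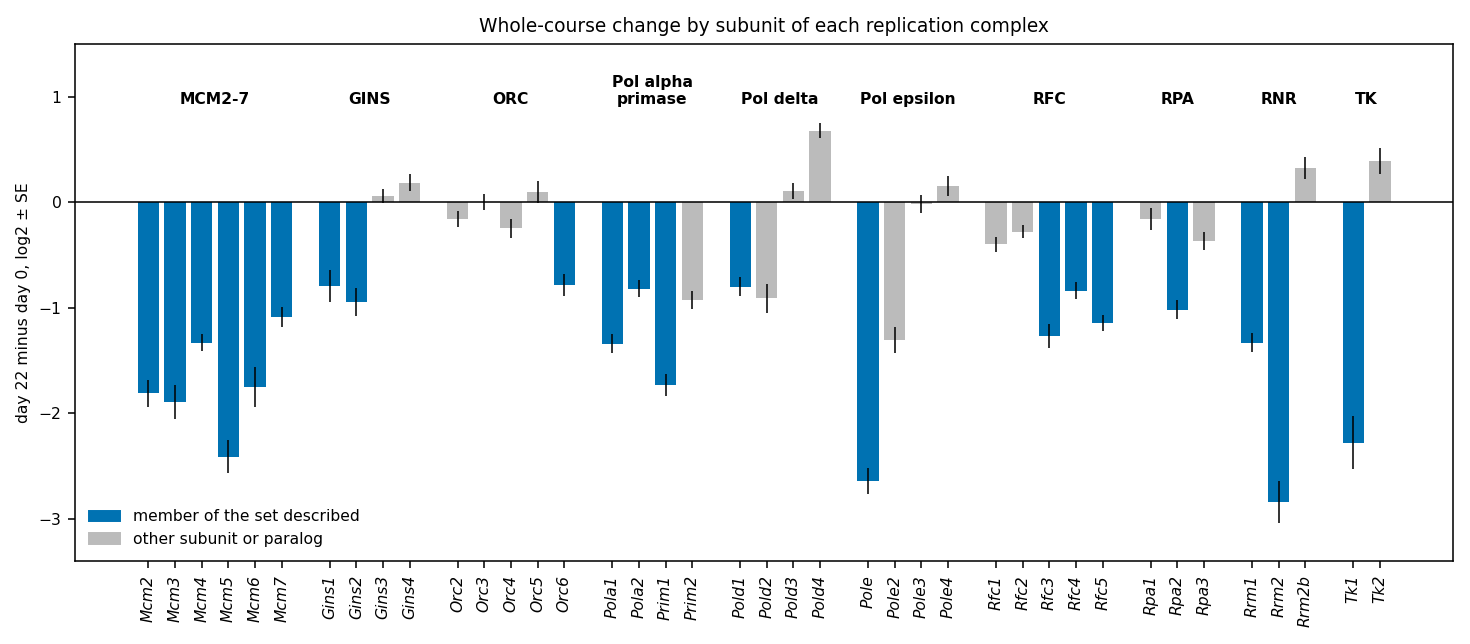
Change from day 0 to day 22 (log2 ± SE, n = 3 batches per day) of each tested subunit of 8 replication complexes and of the paralogs of ribonucleotide reductase and thymidine kinase, with the genes of the set in blue and other subunits in grey. All blue bars lie below 0, while Gins3, Gins4, Pold3, Pold4, Pole4, Orc3, Orc5, Rrm2b and Tk2 lie at or above it.

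Of 43 other replication factors tested, 29 fell over the course and 1 rose, against 18.6% of features lower and 12.6% higher, with a median of -0.77. The largest falls were those of Ticrr, an activator of origin firing (-4.07 ± 0.43, above background on 5 of 6 day 22 arrays), Clspn, a checkpoint adaptor at the fork (-2.90 ± 0.13, on 4 of 6) and Dscc1, a part of an alternative clamp loader (-2.66 ± 0.20). The 1 that rose was Pold4, the smallest subunit of polymerase delta, from arrays of 0.42 to 0.93 on day 0 to arrays of 1.29 to 1.56 on day 22 (0.68 ± 0.07, adjusted p = 0.000174).

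Within polymerase epsilon, Pole2 fell by 1.31 ± 0.12, whereas the histone-fold subunits Pole3 and Pole4, which also belong to other complexes, changed by -0.02 ± 0.09 and 0.15 ± 0.09 (adjusted p = 0.887 and 0.215). Of the origin recognition complex, Orc2, Orc3, Orc4 and Orc5 changed by -0.25 to 0.10, and none passed with both assignments, beside -0.79 for Orc6. The log ratio of Orc6 to the mean of these 4 was lower by 0.71 ± 0.13 on day 22, that of Rpa2 to Rpa1 and Rpa3 by 0.75 ± 0.06, and that of Rfc3, Rfc4 and Rfc5 to Rfc1 and Rfc2 by 0.74 ± 0.09. These subunits were singled out after their values were seen.

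Other steps of nucleotide metabolism were covered by separate lists. Of 18 other deoxynucleotide and thymidylate genes tested, 6 fell over the course and 0 rose by limma with both assignments (3 were higher at an unadjusted p under 0.05 with the filed batches and 2 with the tabled ones), with a median of -0.05. Among those that fell were Dck, the deoxycytidine kinase (-1.29 ± 0.08), and Mthfd2, a mitochondrial folate enzyme (-1.14 ± 0.15). Among 19 genes of purine and pyrimidine ring synthesis 2 fell, Adsl (-0.51 ± 0.10) and Prps1 (-0.31 ± 0.09), and 1 rose, Adssl1, the muscle form of adenylosuccinate synthase (1.67 ± 0.18), with a median of -0.13. Of all features, 18.6% fell and 12.6% rose over the course, and how the lists differ from each other was not tested.

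Of 7 genes that copy mitochondrial DNA, 0 fell by limma (2 were lower at an unadjusted p under 0.05 with either assignment) and 1 rose, Ssbp1, the single-strand binding protein of mitochondria (0.31 ± 0.08), and the mitochondrial polymerase Polg changed by -0.24 ± 0.11 (adjusted p = 0.0968). Of 10 repair and translesion polymerases 3 fell, Polq (-1.82 ± 0.10), Polh (-0.95 ± 0.07) and Rev3l (-0.73 ± 0.10). Of all features, 18.6% fell and 12.6% rose over the course. None of the 10 rose by limma with both assignments, and at an unadjusted p under 0.05 3 were higher with the filed batches and 1 with the tabled batches.

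Genes that drive S phase and mitosis fell as well, beside 18.6% of all features over the course. All 9 tested S phase cyclins, kinases and activators fell over the course, with a median of -1.18, most of all E2f8, a repressor of E2F targets that is itself a target (-3.55 ± 0.27), Ccna2 (-3.21 ± 0.26) and Cdk1 (-3.01 ± 0.30). All 23 tested mitotic genes fell, with medians of -1.21 to day 10, -1.81 from day 10 to day 22 and -3.01 over the course, beside -0.79, -0.53 and -1.33 for the replication genes. Top2a fell by 3.40 ± 0.30 and the proliferation marker Mki67 by 3.25 ± 0.29, the latter from arrays of 4.04 to 4.29 on day 0 to arrays of -0.91 to 1.63 on day 22. Ttk and Cenpf were above background on 0 day 22 arrays, so their falls are bounds, at least 4.06-fold and 3.88-fold from the lowest signal above background. With both at their bound the median over the course was -2.98. Among the 21 mitotic genes measured on both days the changes ran from -3.51 to -2.24, the latter for Aurka, and 7 replication genes changed by more than Aurka, a description with no test. Cdk1 stands in both lists.

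**Figure D4:**
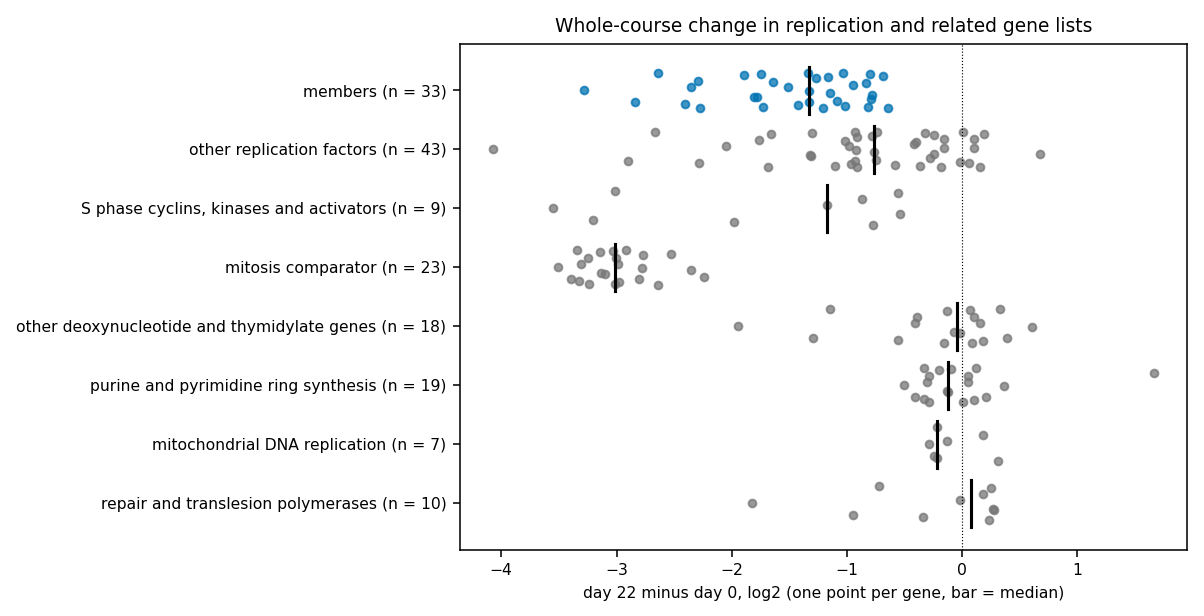
Change from day 0 to day 22 (log2, 1 point per tested gene, bar at the median) of the 33 replication genes and of 7 related lists, with the number tested in brackets and points spread vertically for legibility. The replication genes lie between -3.28 and -0.64, 21 mitotic genes lie between -3.51 and -2.24 while the points of Ttk and Cenpf stand at values not above background on day 22, and the medians of the deoxynucleotide, ring synthesis, mitochondrial and repair lists lie within 0.22 of 0.

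The defining markers of Schwann cells, neurons and fibroblasts were all detected. The summed signal of 10 macrophage markers, as a multiple of the 75th percentile, was 7.47 to 26.4 on the day 0 arrays, 28.2 to 85.6 on day 10 and 68.9 to 374 on day 22, and all 10 markers rose over the course. For 7 Schwann cell markers the sums were 346 to 471, 405 to 508 and 307 to 525, for 8 sensory neuron markers 189 to 369, 255 to 416 and 193 to 344, and for 6 fibroblast markers 498 to 817, 550 to 780 and 460 to 806. The Schwann cell, neuron and fibroblast sums overlapped between days, and of the 7, 8 and 6 markers 1, 1 and 2 fell and 0, 0 and 1 rose over the course. Of all features, 18.6% fell and 12.6% rose. Endothelial sums were 11.9 to 18.3, 13.9 to 17.9 and 12.9 to 16.8, with Tek on the later days and Cldn5 on day 22 above background on 0 arrays, and Ckm, Myh3, Myod1 and Myog of skeletal muscle were above background on 0 arrays. The part of these shifts in the fall of the replication genes was not tested. In RNA of whole cultures, fewer dividing cells and less of each transcript per cell cannot be told apart.

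The median SD between batches of a day was 0.11 for the replication genes with the filed batches and 0.15 with the tabled batches, and the median difference between paired arrays was 0.18 and 0.13. A test for differences between batches within a day called 0 of 33 genes with the filed batches and 1, Chaf1b, with the tabled batches (adjusted p = 0.0297), where 0 and 8.69% of all features were called. Some arrays were the extreme of their day for many genes. On day 0, array 2 of batch 2 was the lowest for 23 of 33 genes and array 2 of batch 3 the highest for 23, and array 2 of batch 3 on day 10 was the lowest for 17. Array 1 of batch 3 on day 22 was the lowest for 18, among them Uhrf1, Rrm2, Pole and Mcm5, where it lay far from the other 5, and its macrophage sum of 68.9 was also the lowest of its day. Without that last array 33, 24 and 33 genes were called lower in the first interval, the second interval and the whole course, and the change over the course was -3.01 for Uhrf1, -2.54 for Rrm2, -2.52 for Pole and -2.31 for Mcm5. In the first interval 17% of all features were called lower in that fit, and the shares for the other comparisons are not given here. No gene of the set changed direction under any of the alternatives run.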

How the data were processed

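Total RNA of 18 samples was measured on 1-colour Agilent arrays. Spot intensity was extracted by the authors with Agilent Feature Extraction, version 10.7.1.1 per the file headers and 10.7.1 in the submitters' notes, with the background subtracted, on a design naming build mm9. Its 0 and 1 flags for spots were deposited in those files too. A value table of linear intensity was deposited as well, with the same quantiles in each column (median 33.7), as after quantile normalization. The steps are not stated in any source used here. Of its 18 columns, 12 hold an array filed under another sample of the same day.

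Log2 intensity minus the array's log2 75th percentile (584 to 747) was computed without 93 to 181 outlier spots per array. Accessions were matched to RefSeq symbols (GRCm38.p6), the brightest probe stood for a gene, and 30431 of 55681 probes, those above background on all arrays of a day, were kept. Paired arrays were averaged and limma 3.58.1 (R 4.3.3) was fitted to the 3 days, with Benjamini-Hochberg adjustment over 22854 features. Tested on simulated data, the steps recovered 39.1 to 50% of 1.5-fold, 64.4 to 70.9% of 2-fold and 91.2 to 96.9% of 4-fold changes. The simulated errors were independent, with the spread of the filed batches. The labels tie a replicate number to 1 batch of ganglia, and same-numbered samples of different days had correlations of -0.13 to 0.37 with the filed and -0.08 to 0.46 with the tabled batches. Promoters were searched in Python 3.11.15.

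All members are named. From the other lists the text names up to 3 rises and 3 falls per list past the threshold, Rrm2b, Tk2, Polg, Mki67 and Top2a, and, chosen after their values were seen, Aurka and further subunits of the members' complexes. The values of 1 gene of these lists are not reported here. The members and lists were chosen with earlier results of these data known. The alternative with normexp used the median in place of the mean spot signal.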

Additional observations from a re-analysis of the deposited data

Results flagged for a closer look

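In 8 cases a single array of a day lay far from the other 5 for a member, by Dixon's gap test at 95%, which chance alone passes in about 1 in 20 groups. A group is 1 gene on 1 day, and each of the 33 tested genes was tried on each of the 3 days. Several of the 8 cases may therefore be chance. On day 22, array 1 of batch 3 was lowest for Uhrf1 (-1.59, the next -0.17), Rrm2 (-0.63, the next 0.86), Pole (-1.43, the next -0.79) and Mcm5 (-1.11, the next -0.54), and the 4 genes fell in both intervals with and without this array, left out after seeing the data. Array 2 of batch 3 on day 10 was lowest for Gins1 (-1.14, the next -0.41) and Rfc5 (1.62, the next 1.83). Array 1 of batch 2 on day 22 was highest for Rrm1 (1.80, the next 1.65), and array 2 of batch 3 on day 0 was highest for Dut (1.17, the next 1.05).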

How the results depend on the processing

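The fall over the whole course kept its count in most alternatives: 33 genes were called with either batch assignment, with the replicate block, under quantile, median and normexp scaling and without each batch in turn (33 to 33), 32 of 33 with the second technical arrays, 32 of 32 with a filter on all 18 arrays, 34 of 34 with no filter, which adds Orc1, and 29 within slide 2. Slide 1 held a single filed batch of day 22, so counts against day 22 within it are not given. The median change over the whole course was -1.18 with normexp background correction in place of -1.33, and -1.39 to -1.26 without each batch in turn. Of all features, 27.3% were called lower over the course with the filed batches, 19.2% with the tabled batches and 20.5% with these as a replicate block. The shares in the other fits over the course are not given here, so their counts are not set against all features. From day 0 to day 10, 33 genes were called lower, 28 with the tabled batches and 26 with these as a replicate block. The count was 14 with the first technical arrays, 12 within slide 1, 0 within slide 2 (26 at an unadjusted p under 0.05 by limma), where 1.75, 1.54 and 0.77% of all features were called lower, in place of 17.8%, and 28 to 33 without each batch in turn. Of all features, 7.94% were called lower in this interval with the tabled batches and 8.9% with these as a replicate block. Without each batch in turn that share was 11.5 to 19.6%. From day 10 to day 22, 26 genes were called lower. This count was 13 with the tabled batches, 10 with these as a replicate block and 25 with the filed batches as a block. It was 13 from the authors' value table and 16 with no filter. In these fits 1.48, 1.75, 6.03, 1.47 and 1.81% of all features were called lower, in place of 5.43%. The count was 2 and 8 with the first and the second technical arrays, where 0.276 and 0.945% of all features were called lower. Within slide 2 it was 0 (27 at an unadjusted p under 0.05 by limma), where 0% of all features were called lower. It was 12 without array 1 of batch 3 of day 22 with the tabled batches, an alternative chosen after seeing the data. Without each batch in turn it was 14 to 24, with 14, 17 and 14 without day 10 batches 1, 2 and 3 and 17 without day 22 batch 2. The shares of all features without that array or without each batch are not given here, so these counts are not set against all features. Within slides 1 and 2 the medians were -0.78 and -0.76, -0.49 and -0.63, and -1.26 and -1.36 for the 3 comparisons, with fewer arrays in each fit. Rpa2 was the 1 gene called in the contrast between intervals in any alternative, with the slide as a block (0.39, adjusted p = 0.0416). Beyond the fewer samples and features of some fits, the cause of these differences was not tested. Low signal limits Orc1 and, on day 22, Cdc6.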
